A study of Mus musculus with 3 samples.

Results

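Ppy, Pyy and Npy are the 3 mouse genes of the pancreatic polypeptide fold family, and their transcripts were followed here across islet cell groups. The members were taken by name, and all 3 were present among the 15741 genes that both deposited tables list. The study measured single-cell RNA in pancreatic islets of Ngn3-CreERT: R26-CAG-TdTomato mice at 10 days post-tamoxifen. In these mice a tamoxifen-inducible Cre under the control of Ngn3, the endocrine progenitor factor now named Neurog3, switches on the red protein TdTomato in cells in which the driver is active, and in their progeny. All 6 mice share this genotype and treatment, which leaves 1 group of 3 samples with no untreated or Cre-negative control, and 2 mice were pooled in each of replicates 2 and 3. Replicate 1 (library 1, 853 cells kept) and a joint table of replicates 2 and 3 (11072 cells kept), whose cells cannot be assigned to either replicate, gave 2 libraries.

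The peptides of this family are cut from larger precursors and carry an amidated carboxyl end, made from the glycine of a Gly-Lys-Arg cleavage site that follows the peptide. Pancreatic polypeptide, from Ppy, is the hormone of islet PP cells, peptide YY (Pyy) is made in gut endocrine cells and in islets, and neuropeptide Y (Npy) is mainly a neuropeptide of central and sympathetic neurons. They act on the shared Y receptors, G protein-coupled receptors encoded by Npy1r, Npy2r, Npy4r, Npy5r and Npy6r.

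The coding stretch of each mature peptide is shown because it is what defines the family. The codons of the 36-residue peptide are in lower case and those of the Gly-Lys-Arg site are in capitals (5′ to 3′, from the GENCODE vM21 transcripts of GRCm38).
Ppy: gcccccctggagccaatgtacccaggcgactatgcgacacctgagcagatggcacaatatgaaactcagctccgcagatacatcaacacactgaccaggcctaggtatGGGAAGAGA
Pyy: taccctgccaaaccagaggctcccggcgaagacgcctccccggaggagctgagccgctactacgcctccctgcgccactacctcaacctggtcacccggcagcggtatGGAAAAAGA
Npy: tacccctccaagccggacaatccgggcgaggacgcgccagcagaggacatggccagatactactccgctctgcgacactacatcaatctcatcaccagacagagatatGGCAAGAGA
The peptides of Pyy and Npy were identical at 24 of 36 residues (66.7%), those of Ppy and Npy at 18 (50%) and those of Ppy and Pyy at 16 (44.4%). The longest run of bases that transcripts of 2 members had in common was 10 bases for Ppy and Pyy, 9 for Ppy and Npy and 10 for Pyy and Npy. Ppy and Pyy are neighbours on chromosome 11 on the minus strand, at 102099930 to 102101319 and 102106676 to 102107832 (GRCm38), with 5356 bases and no annotated gene between them. Npy lies on chromosome 6, plus strand, at 49822710 to 49829507. None of the 3 protein-coding genes overlaps another annotated gene.

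The 250 bases before the start sites of Ppy and Pyy are shown because the transcripts of these neighbours were high in the same cell groups (RefSeq, GRCm38.p6, minus strand). The motif TATAA, searched on both strands, is in capitals.
Ppy, chr11:102101320-102101569: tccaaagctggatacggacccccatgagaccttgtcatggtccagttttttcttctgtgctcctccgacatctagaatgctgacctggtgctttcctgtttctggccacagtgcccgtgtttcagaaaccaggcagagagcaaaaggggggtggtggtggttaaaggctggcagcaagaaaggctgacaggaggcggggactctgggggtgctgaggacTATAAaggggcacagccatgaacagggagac
Pyy, chr11:102107833-102108082: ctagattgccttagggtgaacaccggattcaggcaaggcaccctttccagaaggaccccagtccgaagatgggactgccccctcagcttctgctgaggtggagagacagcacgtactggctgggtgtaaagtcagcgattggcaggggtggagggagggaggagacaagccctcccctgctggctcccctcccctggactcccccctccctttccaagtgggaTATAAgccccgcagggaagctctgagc
The motif began 31 bases before the start of Ppy and 27 bases before the start of Pyy, and was not found in the same window of Npy. RefSeq also lists another Pyy start inside the gene, and from that one the same match lies 83 bases away. Of 32851 mouse promoter windows of this length, 22.8% held it. The motif TAATTA, held by 4.84% of the windows, and the motif CACCTG, held by 17.2%, were each found in none of the 3 members.

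Cells were grouped by the hormone share of their unique molecular identifiers (UMIs, counted transcripts), without use of Ppy or Pyy except where stated. The insulin group had at least 3000 Ins1 and Ins2 UMIs per 10000 (469 cells in library 1, 7084 in the joint table). The Gcg group, with at least 200 UMIs of the glucagon gene per 10000, had 133 and 1182 cells. The Sst group, with at least 200 of the somatostatin gene, had 67 and 592. Cells that reached 2 or more limits were set apart. A Ppy-only group had at least 200 Ppy and none of the other limits (18 and 232 cells). Non-endocrine cells, with at least 3 different markers of 1 of 7 non-endocrine lists and no hormone limit reached, numbered 120 and 1450. Since the limits used Sst and Gcg themselves, the labels were checked on markers outside them. Hhex, a delta cell marker, averaged 2.80 and 2.03 per 10000 in the Sst group against 0.0112 and 0.00906 in the insulin group, and Irx2, an alpha cell marker, averaged 1.06 and 1.25 in the Gcg group against 0.12 and 0.07 in the Sst group. Median depth differed between groups, from 39349 and 19969 UMIs per cell in the insulin group to 10940 and 5771 in the Sst group and 8391 and 2890 in non-endocrine cells. In the joint table the beta cell list (Ins1, Ins2, Iapp, Mafa, Slc2a2, G6pc2) still averaged 1206 per 10000 in non-endocrine cells, against 145 in library 1.

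Ppy was high in the Sst and Gcg groups as well as in the cells chosen for it. Its mean level in the Ppy-only group was 3142 UMIs per 10000 in library 1 and 3815 in the joint table, a value fixed by the choice of these cells. The Sst group followed with 459 and 539, the Gcg group with 323 and 280, and the insulin group with 5.52 and 11.9. Non-endocrine cells had 1.5 and 11.5, with medians of 1.06 and 3.87. The order of the means was the same in both tables. In the joint table's 3 blocks of cell barcodes Ppy averaged 484, 620 and 573 in the Sst group and 244, 367 and 276 in the Gcg group, so the Sst group was the higher in each block. In non-endocrine cells it averaged 19.8, 4.52 and 5.20, against 6.82, 13.6 and 17.7 in the insulin group. The order of these 2 groups thus turned in block 1, where the highest non-endocrine cell had 5804.

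Relative to the median gene, Ppy was 5.09 log2 units higher in the Sst than in the insulin group (SE 0.58, adjusted p = 3.02e-04, limma with Benjamini-Hochberg adjustment, n = 2 libraries) and 4.60 higher in the Gcg than in the insulin group (SE 0.58, adjusted p = 4.51e-04). The difference between the Sst and Gcg groups, 0.48 (SE 0.58, adjusted p = 0.682, limma), did not pass. The SE of a gene is shared by these comparisons, since a single fit held all groups, non-endocrine cells included. It does not measure the spread of the 2 compared groups alone. Of all 10158 genes tested, 20.7% passed in the comparison of the Sst with the insulin group, 13.9% in that of the Gcg with the insulin group and 7.95% in that of the Sst with the Gcg group. With DESeq2 on the UMI counts the differences of Ppy from the insulin group were 5.10 and 5.13 and missed the threshold (adjusted p = 0.120 and 0.108), while 7 other processing alternatives and edgeR kept both calls.

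Within the groups Ppy was spread unequally. In the Sst group the median cell had 385 and 345 UMIs per 10000, with a middle range (25th to 75th percentile) of 109 to 615 and 85.7 to 641. In the Gcg group the median was only 7.41 and 12.9, the 75th percentile 111 and 145, and the highest cell 3609 and 5739. Thus 62.7% of Sst cells in library 1 and 61.1% in the joint table had at least 200 Ppy, but 21.8% and 21.7% of Gcg cells. In the insulin group 1 of 469 and 66 of 7084 cells reached 200.

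**Figure D1:**
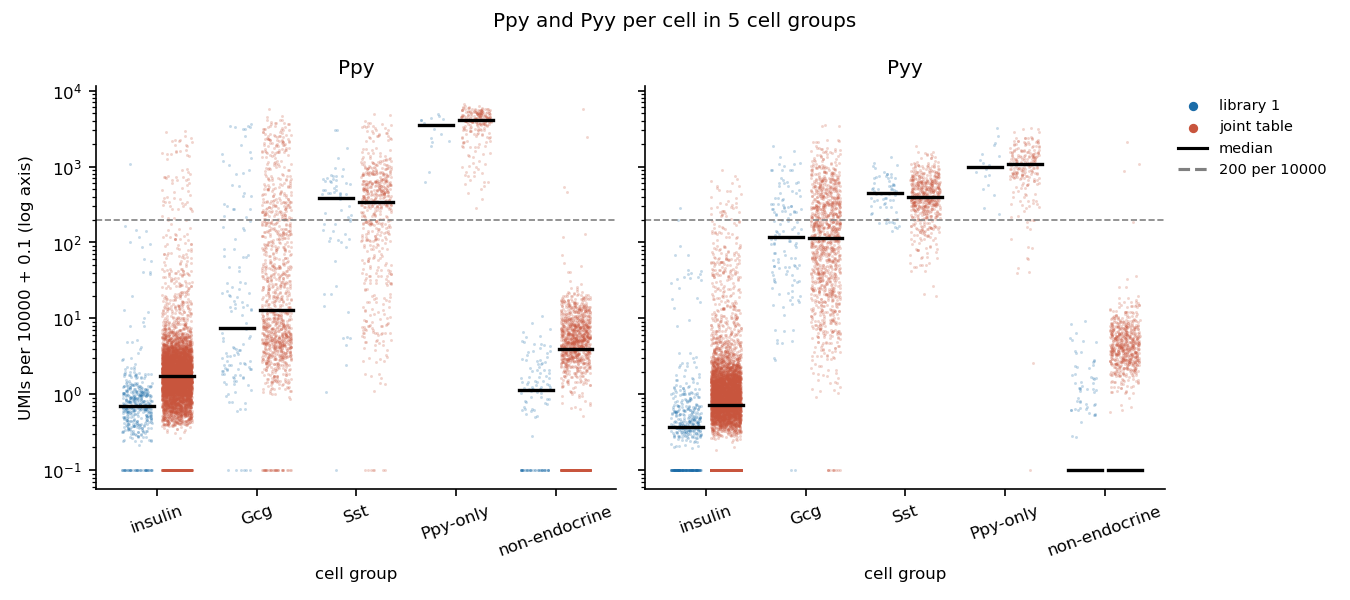
UMIs of Ppy and Pyy per 10000 in each cell (log axis, 0.1 added, so cells with none sit at the bottom), by cell group. Blue points are cells of library 1, red points are cells of the joint table and black bars are medians. For Ppy the Gcg group spreads from 0 to 5739 with medians of 7.41 and 12.9, while the Sst group has medians of 385 and 345.

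The Ppy-only group held 38.6% of all Ppy UMIs of kept cells in library 1 and 51.7% in the joint table, while it made up 2.11% and 2.10% of the cells. Gcg cells held 37.8% and 18.0%, and Sst cells 14.5% and 14.1%. Of the 99 cells with at least 200 Ppy in library 1, 42 were in the Sst group, 29 in the Gcg group and 18 in the Ppy-only group. Of 1009 such cells in the joint table, 362, 256 and 232 were. Cells just below the limit had 191 and 199 Ppy UMIs per 10000 and cells just above it 201 and 202. The 13 and 150 cells over both the Gcg and the Sst limit averaged 358 and 267 Ppy and 343 and 338 Pyy. Their Ppy lay between the means of those 2 groups in library 1 and below both in the joint table. Whether these are doublets was not tested.

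The low Ppy of the insulin group could not be set apart from background. After each cell was thinned to 2000 UMIs, 15.4% of insulin cells in library 1 and 32.3% in the joint table had a Ppy UMI, below the 27.2% and 55.5% of non-endocrine cells. Without thinning, the shares were 91.0% and 94.1% against 69.2% and 72.2%, at the unequal depths given above. Thinning keeps a cell's share of RNA from outside it, which may be larger in shallower cells. These shares therefore cannot place insulin cells above or below background. For Pyy the thinned shares were 12.6% and 16.8% in insulin cells and 14.0% and 33.9% in non-endocrine cells. By contrast, 94.0% and 95.3% of Sst cells and 64.6% and 80.6% of Gcg cells had a Ppy UMI after thinning. For Pyy these were 100% and 100% of Sst cells and 96.9% and 95.5% of Gcg cells.

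Pyy was high in the same groups and was more evenly spread. Its mean was 1185 UMIs per 10000 in library 1 and 1118 in the joint table in the Ppy-only group, 487 and 456 in the Sst group and 257 and 256 in the Gcg group. It was 2.94 and 4.27 in the insulin group and 0.88 and 5.29 in non-endocrine cells, whose medians were 0. The barcode blocks gave 453, 484 and 435 in the Sst group and 252, 294 and 232 in the Gcg group. The 2 groups kept the same order in each library and block, where the blocks are parts of the joint table.

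Pyy exceeded the insulin group by 6.19 log2 units in the Sst group (SE 0.52, adjusted p = 6.63e-05, limma) and by 5.55 in the Gcg group (SE 0.52, adjusted p = 8.54e-05), and all 9 alternatives with a test kept both calls. Between the Sst and Gcg groups the difference of 0.64 (SE 0.52, adjusted p = 0.541, limma) did not pass. Here too the SE is over all groups of the fit, non-endocrine cells included. In the Ppy-only group Pyy was 2.46 log2 units higher than in the Gcg group (SE 0.52, adjusted p = 0.0456), a call that 6 of 9 alternatives lost (adjusted p up to 0.421). The difference from the Sst group was 1.82 (SE 0.52, adjusted p = 0.0798). The share of genes that passed was 1.90% for the Ppy-only group against the Gcg group and 5.07% against the Sst group. In both tables each of these differences in Pyy was positive.

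Of Sst cells, 85.1% and 84.5% had at least 200 Pyy per 10000, and of Gcg cells 39.1% and 36%. All Sst cells of both tables had at least 1 Pyy UMI. The Ppy-only cells were chosen without Pyy, and 18 of 18 and 216 of 232 reached 200 Pyy.

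Non-endocrine cells with much Ppy or Pyy were few. Myeloid-marker cells with at least 200 Ppy per 10000 numbered 4, all in the joint table. The highest had 5804 Ppy and 1085 Pyy among 50491 UMIs, with 4 myeloid markers detected. The median depth of the joint table's myeloid-marker cells was 3303 UMIs. Cells with at least 3 markers were placed here whatever their Ppy, and whether these barcodes hold more than 1 cell was not tested. A single Schwann-marker cell of barcode block 3 had 2099 Pyy but 68.1 Ppy, with 3 Schwann markers detected and 2935 UMIs. In library 1 no non-endocrine cell exceeded 10.7 Ppy or 9.09 Pyy. These 5 cells were chosen after their values were seen.

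Npy was at or near 0 in all groups, and most of its few UMIs lay in a small subset of cells of the insulin group, the largest group. Library 1 held 130 Npy UMIs in kept cells, of which 122 (93.8%) lay in 9 of 469 insulin cells. The joint table held 1768, of which 1398 (79.1%) lay in 207 of 7084 insulin cells (2.92%), 80 of them with 5 or more. The insulin group made up 64.0% of the joint table's cells. Over the summed UMIs of that table, Npy was at 9.06 CPM in the insulin group, 25.7 in the Sst group and 22.5 in non-endocrine cells. After thinning to 2000 UMIs, 0.64% of insulin cells in library 1 and 0.79% in the joint table had an Npy UMI, against 1.75% and 0.79% among non-endocrine cells and 0% and 1.41% among Sst cells, so the share in insulin cells was not above that of non-endocrine cells. The barcode blocks had 2.65%, 2.78% and 3.39% of insulin cells with an Npy UMI. The insulin group averaged 0.06 Npy UMIs per 10000 in both tables. The Sst cells of the joint table, at 0.30, were the 1 group that reached the 0.1 needed in 2 columns, so Npy was not tested between groups.

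In Sst cells Npy gave 0 UMIs in 67 cells of library 1, where 3 counts would make 4.48% of cells, and 108 UMIs in 16 of 592 cells of the joint table, 34 of them in 1 cell. The Gcg group had 0 UMIs in library 1 (3 counts would make 2.26% of cells) and 12 in the joint table, each in its own cell, and the Ppy-only group had 0 and 2. Among non-endocrine cells Npy was found mainly under Schwann markers, with 104 of 117 UMIs in 7 of 48 Schwann-marker cells of the joint table. A single cell held 91 of these. In library 1, 1 of 2 Schwann-marker cells held 5 of the 8 non-endocrine UMIs.

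Insulin cells with 5 or more Npy UMIs had beta cell genes at levels near those of insulin cells without any. In the joint table the 80 cells had 2057 Ins1 and 4783 Ins2 UMIs per 10000, against 1735 and 4670 in the cells with no Npy UMI. Mafa, a factor of mature beta cells, was at 4.68 against 4.63, and the glucose transporter gene Slc2a2 at 2.86 against 3.31. Pcsk1, the prohormone convertase that is prominent in beta cells, was at 2.12 against 1.41, and was higher in each barcode block (2.26 against 1.37, 2.31 against 1.39 and 1.92 against 1.49) and in the 5 such cells of library 1 (2.58 against 1.70). Mean Sst was also higher in the 80 cells, at 8.63 against 2.41, and in each block (7.99 against 1.97, 12.4 against 2.15 and 7.34 against 3.19), but not in library 1 (0.09 against 2.65). Gcg was at 8.16 against 3.87, higher in blocks 1 and 3 and lower in block 2. Mean Ppy was at 3.06 against 12.2. That mean rests on few cells and does not describe the typical one, since the joint insulin group as a whole had a median of 1.62 and a 90th percentile of 4.05 Ppy. The comparison has 5 cells in library 1 and was not tested, and it was chosen after the Npy counts were seen. Median depth was 32088 UMIs in the 80 cells against 19808 in those with no Npy UMI, and its part in these differences was not tested.

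Across single Gcg cells Pyy was higher the more Ppy a cell had, while in Sst cells the median Pyy stayed between 336 and 473 below 1000 Ppy. In Gcg cells with under 20 Ppy per 10000 the median Pyy was 49.6 in library 1 and 41.4 in the joint table. It was 253 and 183 at 20 to 200 Ppy, 370 and 382 at 200 to 1000, and 892 and 818 at 1000 or more. Across cells the Spearman correlation of Ppy and Pyy was 0.71 (133 cells) and 0.68 (1182 cells), where cells share a library and both values share the cell's total. Gcg itself was lower in the highest class, with a median of 1214 and 928 against 2990 and 2835 in the lowest.

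In Sst cells the median Pyy was 473 and 378 under 20 Ppy, 462 and 336 at 20 to 200, and 431 and 382 at 200 to 1000. Only the 4 and 73 cells with 1000 Ppy or more stood higher, at 740 and 703, and their median Sst was 545 and 654 against 1375 and 1591 under 20 Ppy. These cells also had 30173 and 12731 UMIs per cell against 10209 and 5364. The Spearman correlation was 0.03 (67 cells) and 0.27 (592 cells), and 0.15, 0.39 and 0.34 in the barcode blocks, against 0.66, 0.74 and 0.67 in the blocks of the Gcg group. Pyy of at least 200 was found in 88.1% and 89.2% of Sst cells with 200 Ppy and in 80.0% and 77.0% of those with less. In the Gcg group the same shares were 93.1% and 87.5% against 24.0% and 21.8%. The difference between the 2 groups in this relation was not tested.

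**Figure D2:**
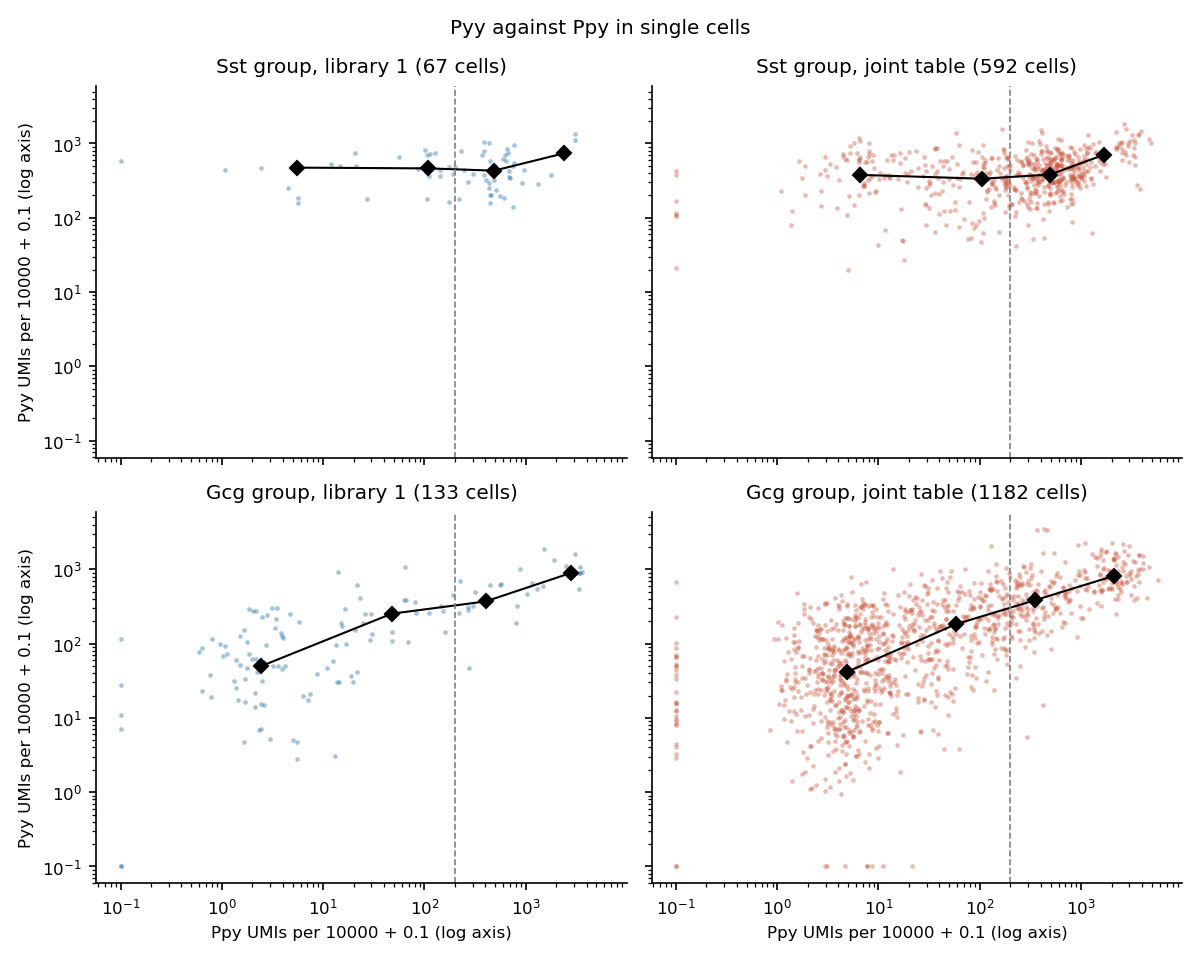
Pyy against Ppy, in UMIs per 10000 with 0.1 added, on log axes, for single cells of the Sst group (top) and the Gcg group (bottom) in library 1 (left) and the joint table (right). Diamonds are the medians of cells with under 20, 20 to 200, 200 to 1000 and 1000 or more Ppy, and the dashed line marks 200. In Gcg cells the medians climb from 49.6 to 892 and from 41.4 to 818, while in Sst cells they stay between 336 and 473 below 1000 Ppy.

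Over the 6 cell groups with at least 20 cells in both tables (insulin, Gcg, Sst, endothelial, myeloid and fibroblast), Pyy had the pattern most like that of Ppy among 11019 genes, with Pearson correlations of the log2 levels of 0.998 (library 1) and 0.984 (joint table). The next were Calb1, a calcium-binding protein (0.989 and 0.972), Mpp2 (0.957 and 0.969), 9330159F19Rik (0.956 and 0.962) and Dixdc1 (0.966 and 0.952). For Pyy the closest were Calb1 (0.993 and 0.992), Ppy, Ocrl (0.988 and 0.983), Cldn6 (0.986 and 0.979) and A2ml1 (0.991 and 0.977). These are descriptions over 6 points that share a library. Npy did not reach the level needed for this list.

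The convertases and the amidating enzyme were measured in all endocrine groups. Pcsk2, the convertase known from glucagon cells, averaged 16.2 and 18.4 per 10000 in the Ppy-only group, 18.1 and 25.6 in the Sst group and 31.0 and 37.1 in the Gcg group. Pcsk1 averaged 0.71 and 0.33 in the Ppy-only group, 0.46 and 0.55 in the Sst group, 0.04 and 0.13 in the Gcg group and 1.71 and 1.43 in the insulin group. Of 7 processing genes tested, 1 was higher and none lower in the Ppy-only than in the Gcg group, Pcsk1 with 2.39 log2 units (adjusted p = 0.00635, limma), a call lost with edgeR (adjusted p = 0.0985). Of all genes tested, 1.90% passed in that comparison. None passed between the Ppy-only and the Sst group. Against the insulin group Pcsk1 was lower in the Sst (-2.38, adjusted p = 0.00110, limma) and Gcg groups (-4.29, adjusted p = 3.92e-05), and it was higher in the Sst than in the Gcg group (1.91, adjusted p = 0.00547). Pam, the enzyme that amidates the carboxyl end, was higher than in the insulin group in the Sst (1.06, adjusted p = 0.00198, limma) and Gcg groups (1.24, adjusted p = 6.60e-04). Dpp4, the protease that trims peptide YY and neuropeptide Y, passed in no comparison.

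Of the 5 receptor genes, Npy1r was the only one listed for both tables, so the others were not tested. Npy1r did not reach the level needed for the test, at 0.04 and 0.14 per 10000 in non-endocrine cells and at most 0.004 in the endocrine groups.

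The Ppy-only cells differed in islet lineage factors from both the Sst and the Gcg group. Of 13 factors tested, 2 were higher and 4 lower than in the Sst group, and 2 higher and 2 lower than in the Gcg group. Among these, Neurog3 reached the level needed for the test only in the Sst group, and Irx1 only in the Gcg group. Their calls therefore follow in part from how they entered the test. Over all genes tested, 5.07% and 1.90% passed in these comparisons. The median log2 difference of the list was -0.21 against the Sst group and -0.035 against the Gcg group, with medians of 0.07 and 0.06 over all genes tested. Hhex, the delta cell homeobox factor, was at 0 and 0.01 per 10000 in the Ppy-only group against 2.80 and 2.03 in the Sst group (log2 difference -4.92, adjusted p = 1.04e-05, limma). Neurog3 was at 0 and 0.002 against 0.43 and 0.42 (-2.68, adjusted p = 4.61e-05). Since library 1 gave 0 UMIs of either gene in 18 Ppy-only cells, where 3 counts would make 16.7% of cells, these sizes depend on the pseudocount, and they ranged over the alternatives from -6.23 to -2.34 for Hhex and from -6.47 to -0.70 for Neurog3. Isl1 (-0.93) and Meis2 (-0.68) were the other 2 lower factors, and Meis2 lost its call under 4 alternatives.

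Irx1 and Irx2, factors of alpha cells, fell by 3.54 (adjusted p = 3.25e-05, limma) and by 2.36 log2 units (adjusted p = 0.00286) from the Gcg to the Ppy-only group. Irx1 averaged 0.014 and 0.017 per 10000 in the Ppy-only group against 0.88 and 0.88 in the Gcg group, and Irx2 averaged 0.11 and 0.17 against 1.06 and 1.25. Nkx6-1, known from beta cells, was at 1.25 and 0.74 in the Ppy-only group against 0.26 and 0.31 in the Gcg and 0.25 and 0.32 in the Sst group (1.88, adjusted p = 0.0185, and 2.13, adjusted p = 0.00397). Pdx1 was higher than in the Gcg group by 1.66. The calls of Nkx6-1 and Pdx1 against the Gcg group were each lost under 3 alternatives, and against the Sst group that of Irx1 (0.91) was lost under 6 and that of Nkx6-1 under 1. 

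**Figure D3:**
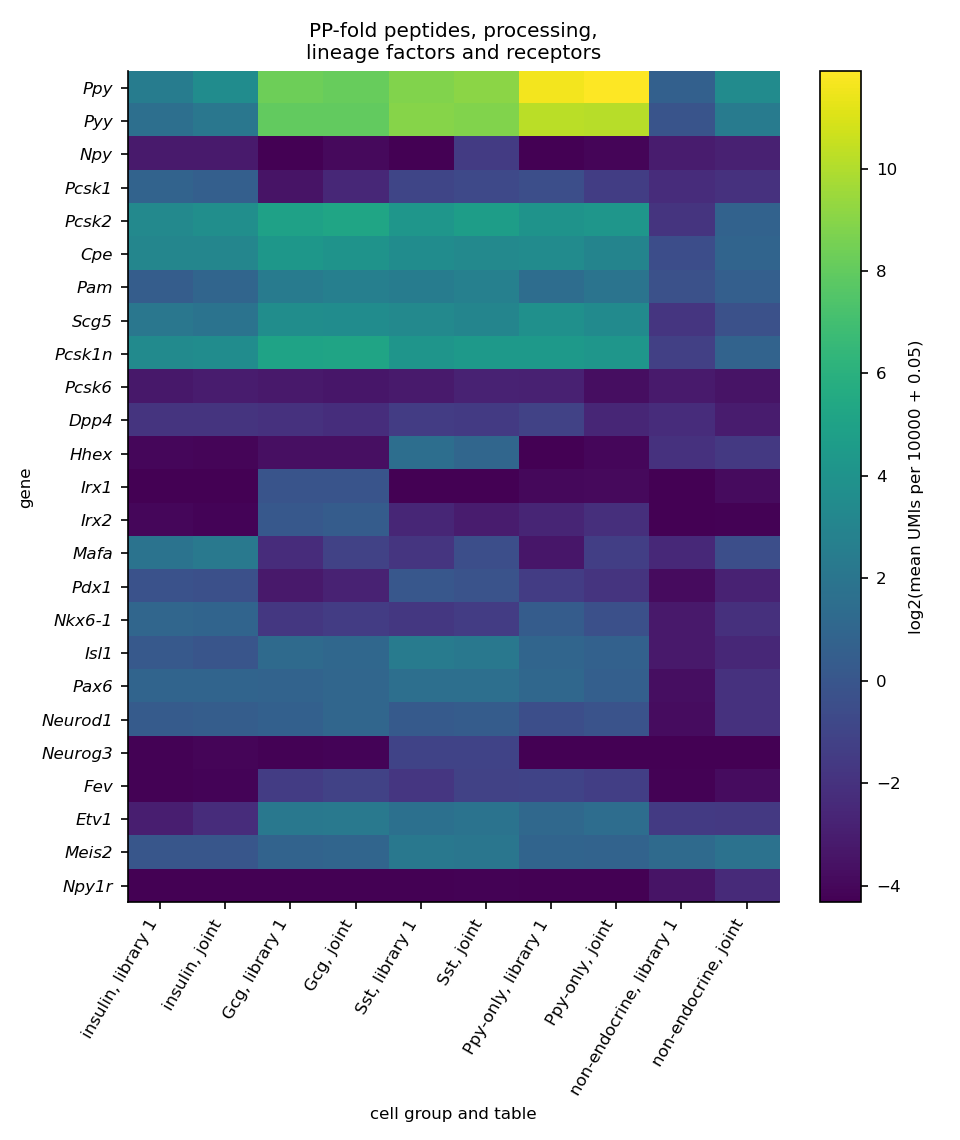
Mean level per cell group and table, as log2(mean UMIs per 10000 + 0.05), of the family members, the processing genes, the lineage factors and the receptor gene listed in both tables. Rows are to be read across, since levels of different genes are not comparable. Within their rows, Hhex and Neurog3 are highest in the Sst columns, and Irx1 and Irx2 in the Gcg columns.

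Sst cells with Ppy (at least 200 per 10000, 42 and 362 cells) were compared with the Sst cells under that limit (25 and 230 cells), called without Ppy here. That side was lower in Ppy and not free of it. Its median was 56.3 and 38.9 per 10000, against 504 and 576 with Ppy and 1.06 and 3.87 in non-endocrine cells. The limit used Ppy, so Ppy was not a result. Pyy and the elastase gene Cela1 were higher with Ppy, and no gene of the processing and lineage lists passed. Of 8324 genes tested, 15 passed (0.180%, limma), 4 higher (Ppy, Pyy, Cela1, Tspan8) and 11 lower, while 650 passed 0.05 before adjustment. Ppy is counted in these numbers but passed through the choice of cells. The fit had 1 residual degree of freedom against 38.4 prior ones, so its SEs rest mostly on the spread of other genes. On simulated counts, with 8606 genes run, it called 27 unchanged genes. This is more than its threshold allows, so some of the 15 may be false calls. All 15 moved 1 way in both tables and all 3 blocks, so that requirement removed none of them.

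Pyy averaged 501 with and 462 without Ppy in library 1, and 494 and 398 in the joint table. The log2 difference was 0.33 (SE 0.05, adjusted p = 5.10e-05), with 0.22 in library 1 and 0.26, 0.56 and 0.68 in the blocks. The median in library 1 was the other way, 431 with and 473 without, and 434 against 355 in the joint table. Without the cells of 1000 Ppy or more, an alternative added after the data were seen, the difference was 0.16 (adjusted p = 0.0234). The call was lost without centring (0.21, adjusted p = 0.286), without the filter (0.28, 0.727), with hormone UMIs out of the denominator (0.37, 0.603) and with at least 3000 UMIs per cell (0.29, 0.362). With 1 Ppy UMI as the limit, which left 1 and 7 cells without Ppy, the difference was -1.03.

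Cela1, an elastase gene, averaged 2.51 with and 1.30 without Ppy in library 1 and 3.98 and 2.26 in the joint table, a difference of 0.98 (SE 0.14, adjusted p = 6.86e-05). The acinar list, which does not hold it, summed to 1.44 and 0.75 per 10000 in library 1 and to 12.3 and 13.8 in the joint table, and its part in the difference was not tested. Tspan8, a membrane tetraspanin, averaged 6.36 and 4.25, and 5.0 and 3.76 (0.61, adjusted p = 0.00646).

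Lower with Ppy were Slc30a8, the zinc transporter of insulin granules (-1.30), Pdyn, the prodynorphin gene (-1.21), A230057D06Rik (-0.93), Dst, a cytoskeletal linker (-0.82), Zdbf2 (-0.81), Ins2 (-0.55), Ins1 (-0.45), Meg3, an imprinted noncoding RNA (-0.33), and the mitochondrial transcripts mt-Cytb (-0.28), mt-Atp6 (-0.27) and mt-Co3 (-0.23). Pdyn averaged 0.29 with and 0.84 without Ppy in library 1 and 0.26 and 0.70 in the joint table. Mitochondrial UMIs made up a median of 4.73% with and 5.44% without Ppy in library 1 and of 3.92% and 4.34% in the joint table.

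A single library 1 cell held 57.5% of the insulin UMIs of its side without Ppy. When that cell was left out, an alternative added after the data were seen, 3 genes passed (Ppy, through the choice of cells, Pyy and Cela1). The differences in limma were 0.31 for Pyy (adjusted p = 0.0487), -0.20 for Ins2 (0.437), -0.16 for Ins1 (0.706) and -1.08 for Slc30a8 (0.437). The calls of Pdyn (-1.23, 0.197), Zdbf2 (-0.82, 0.125) and Tspan8 (0.58, 0.125) were lost as well, with little change in size. In the joint table the beta list averaged 989 with and 1218 without Ppy, against 1206 in non-endocrine cells.

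**Figure D4:**
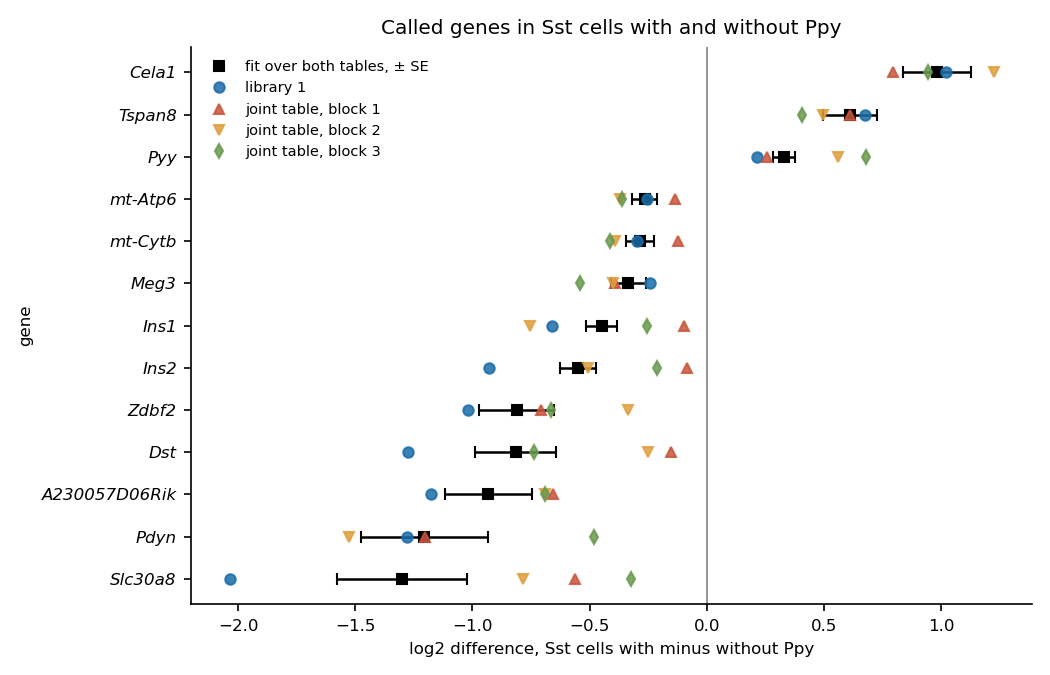
Log2 difference between Sst cells with and without Ppy for the called genes that moved 1 way in all libraries and blocks. Black squares and bars are the fit and its SE, blue points library 1, and the other symbols the 3 barcode blocks of the joint table. Cela1 lies between 0.79 and 1.22, while Slc30a8, Dst, Ins1 and Ins2 are farther from 0 in library 1 than in blocks 1 and 3.

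None of 8 processing genes and none of 11 lineage factors tested passed between Sst cells with and without Ppy. Of all genes tested 0.180% passed, so lists this short would be likely to hold none. Sst itself averaged 1217 with and 1439 without in library 1 and 1219 and 1403 in the joint table (log2 difference -0.10, adjusted p = 0.426). Its medians were 1234 and 1464, and 1220 and 1470. This result depended on the processing, since over 15 settings the difference ranged from -1.91 to 0.16 and was called in 4. Hhex differed by 0.06 (adjusted p = 0.959). Neurog3, the driver of the lineage label, had a UMI in 31.0% of cells with and 36% without Ppy in library 1 (exact 95% intervals 17.6 to 47.1% and 18.0 to 57.5%) and in 19.1% and 23.5% in the joint table (15.1 to 23.5% and 18.2 to 29.5%). Its log2 difference was -0.18 (adjusted p = 0.919), and median depths were 10770 and 11000 UMIs, and 5908 and 5505. Npy had 34 UMIs in 9 cells with and 74 UMIs in 7 cells without Ppy in the joint table, and none in library 1 (log2 difference -0.42, adjusted p = 0.878, limma). edgeR on the same UMI counts called Npy lower with Ppy (-1.94, adjusted p = 7.63e-06), a value that rests on the joint table alone. The median doublet score was 0.013 on both sides in library 1 and 0.021 with and 0.016 without Ppy in the joint table. Its part in the differences was not tested.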

How the data were processed

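Islet cells of 6 mice were measured with the 10x Genomics 3-prime assay. The authors deposited raw UMI counts for replicate 1 and, for replicates 2 and 3 together, natural log values, ln(1 + 10000 × UMI count / cell total). Per the submitters' processing notes, Cell Ranger 3.2.0 and 5.0.0, cutadapt 2.5, FastQC 0.11.8 and Seurat 4.0.0 were used on mm10. After the exponential, 100% of 35558086 nonzero joint values were whole counts within a tolerance of 0.001, and UMI counts were recovered. Of 16050 joint columns, 3008 repeat another suffix and were dropped, leaving 5894, 3008 and 4140 cells in 3 blocks by suffix. Blocks cannot be assigned to replicates, so the joint table is 1 library and blocks give directions only. Libraries and blocks shared at most 6 barcodes pairwise. Total depth was 27474046 UMIs in library 1 and 196833349 in the joint table.

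Cells were kept from 500 genes and 1000 UMIs upwards, and up to 20% mitochondrial UMIs. The highest Scrublet scores (scanpy 1.11.5) were removed at 0.8% per 1000 cells, which took out 6 cells of library 1 and 217, 54 and 106 per block. Levels are means over cells of UMIs per 10000. Groups were compared with limma 3.58.1 (R 4.3.3, eBayes with trend) on log2(mean + 0.05), so low genes' changes are understated, with columns centred on their median, library as a block, genes at 0.1 or more in at least 2 columns, and Benjamini-Hochberg adjustment over all genes tested at 0.05. The centring removed shifts in the median gene of 0.84 (Sst - insulin), 0.60 (Gcg - insulin), 0.24 (Sst - Gcg), -0.53 (Ppy-only - Sst), -0.29 (Ppy-only - Gcg) and -0.12 (Sst cells with - without Ppy). The fits were tested on simulated data. For Sst - Gcg, 16 of 100 genes changed by 1 log2 unit were recovered and 95 of 100 changed by 2, with 0 false calls. A difference of about 1 log2 unit or less that did not pass is therefore not shown to be absent. Alternatives were other pseudocounts, filters, limits and denominators, edgeR 4.0.16 and DESeq2 1.42.0 on summed UMI counts, and each table alone.

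Named genes are the members, the processing, receptor and lineage lists (some lineage factors are not reported here), the 5 genes most like each member, and up to 10 called genes per direction that moved 1 way in both tables and all 3 blocks. mt-Co3 is named outside that rule, after its value was seen. The members and lists were chosen with earlier results of these data known. Nothing says that the mice of the pooled samples can be separated, so each fit rested on 2 libraries that also differ in software version. In limma the spread behind a p-value was a gene's own, moderated towards that of all genes tested. For cell groups it was taken over the insulin, Gcg, Sst, Ppy-only and non-endocrine groups in a single fit. It is therefore not the spread between libraries of the 2 compared groups alone. The prior had 6.25 degrees of freedom against 4 residual ones for cell groups, and 38.4 against 1 for Sst cells. The p-values for Sst cells thus hardly measure a gene's own spread between libraries. Intervals are exact (Clopper-Pearson, 95%), the limit for a count of 0 is 3 counts, and both cover counting error only. Promoters came from RefSeq and matched all 3 members.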

Additional observations from a re-analysis of the deposited data

How the results depend on the processing

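Ppy and Pyy kept their direction in the comparisons with the insulin group under every alternative run, and in each table alone. For the Sst against the insulin group, Ppy differed by 4.68 to 5.50 log2 units and Pyy by 5.91 to 6.47 in single tables, and for the Gcg against the insulin group by 3.96 to 5.25 and 5.29 to 5.81. DESeq2 took the calls of Ppy below the threshold (5.10 and 5.13). Between the Sst and Gcg groups Ppy, never called, was 0.25 to 0.72 in single tables, -0.0625 with edgeR and -0.0354 with DESeq2, and Pyy was 0.62 to 0.66. Pyy in the Ppy-only group was 1.74 to 1.90 above the Sst group in single tables, passed with limits of 5000 and 400 (1.66, adjusted p = 0.0304), and was 2.40 to 2.52 above the Gcg group. That call was lost with a pseudocount of 0.5 (2.26), no filter (2.42), edgeR (2.15), DESeq2 (2.17), hormone UMIs left out (2.51) and no doublet removal (2.42). Between Sst cells with and without Ppy, Pyy was 0.22 to 0.45 in single tables, lost its call without the filter (0.28), without centring (0.21), without hormone UMIs (0.37) and at 3000 UMIs (0.29), and turned to -1.03 with a limit of 1 Ppy UMI. That limit also turned Cela1 (-1.70), Tspan8 (-1.05), Pdyn (0.32), A230057D06Rik (0.55) and Neurog3 (0.46), with 1 and 7 cells on the side without. Sst was 0.16 among all cells with Sst. Hhex, never called, was -0.0607 without centring, -0.1587 with edgeR, -0.0484 with DESeq2 and -1.35 with 1 Ppy UMI. The cause was not tested.

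Counts of called genes moved more. Without centring they were 6263 for Sst - insulin (6096 higher and 167 lower, against 899 and 1203 of 2102), 4263 for Gcg - insulin (4002 and 261, against 686 and 729 of 1415), 3414 for Ppy-only - Sst (116 and 3298, against 223 and 292 of 515) and 553 for Ppy-only - Gcg (46 and 507, against 88 and 105 of 193). For Sst - Gcg, 916 were higher and 222 lower, against 478 and 330. For Sst cells with and without Ppy, 2 were higher and 14 lower, against 4 and 11. Without the filter they were 5120, 3272 and 2163 for the first 3. edgeR gave 2447 for Gcg - insulin, 238 for Ppy-only - Sst and 80 for Ppy-only - Gcg, DESeq2 2149 and 319 for the first 2, and a pseudocount of 0.5 gave 818 for Ppy-only - Sst. In place of 15 genes between Sst cells with and without Ppy, edgeR called 35, DESeq2 2, the fit without hormone UMIs 1, no doublet removal 23, a Ppy limit of 20 gave 4, of 1 UMI 33, a lower side under 20 gave 5, all cells with Sst 136, leaving out cells of 1000 Ppy or more 48, and leaving out the insulin-rich cell of library 1 gave 3. The last 2 were added after the data were seen. All these counts for Sst cells include Ppy where it passed, through the choice of cells. The 1 gene called without hormone UMIs may thus be Ppy itself.

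Depth limits Npy, for which 3 counts among the 18 Ppy-only cells of library 1 would make 16.7%, and the side without Ppy, with 25 cells in library 1. Cell groups were compared within each library, with library as a block. A block by replicate number was not fitted, since the joint table carries no replicate numbers.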
